A study of Mus musculus with 23 samples.

Results

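The myostatin and activin pathway was examined through 10 genes chosen by symbol from the count tables of mouse quadriceps and epididymal fat: the ligand genes Mstn, Inhba and Inhbb, the receptor genes Acvr2a, Acvr2b and Acvr1b, the intracellular genes Smad3 and Smad7, and the ligand-binding genes Fst and Fstl3. Of these, 9 had a row among the 12831 genes of the quadriceps table and 9 among the 16962 genes of the fat table. Inhba had no row for quadriceps and Mstn had none for fat, so 8 were compared in both tissues. The 2 tables together listed 17194 genes.

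The tissues came from male C57BL/6J mice that were 8 weeks old at surgery. No tumor mice had sham surgery. KPC mice received, into the pancreas, cells from a pancreatic tumor of a male mouse in which Pdx1-Cre had switched on engineered tumor alleles. These cells were a clone carried through a CRISPR/Cas9 transfection without editing of Il6. KPC IL6KO mice received a single clone of the same line in which Il6, the gene for interleukin-6, had been edited with CRISPR/Cas9, so the difference between the tumor groups is also a difference between clones. The study also reports larger tumors in KPC than in KPC IL6KO mice, without a correlation between tumor mass and muscle mass. The host mice kept their own Il6. Tissue was taken when the KPC group showed wasting. Quadriceps came from 3 no tumor, 4 KPC and 4 KPC IL6KO mice (numbers 1 to 4), and fat from 4 mice in each group (numbers 5 to 8), with 1 library per mouse and tissue. Whether any animal gave both tissues is not given in the sources used here. The study asked whether interleukin-6 made by the tumor cells is needed for the loss of muscle and fat.

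Myostatin, the product of Mstn, is secreted mainly by skeletal muscle and limits its growth. Activins are related ligands built from the inhibin β chains that Inhba and Inhbb encode. Both kinds of ligand bind the type II receptors ACVR2A and ACVR2B, which recruit a type I receptor such as ACVR1B (ALK4), and the receptor complex phosphorylates SMAD2 and SMAD3. Follistatin (Fst) and the follistatin-like protein encoded by Fstl3 bind the ligands outside the cell, and SMAD7 blocks signaling at the receptor. Excess signaling through this route is known to shrink muscle fibers.

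Counts per library summed to between 19259763 and 74907810. Levels are given in CPM, read counts scaled to a common, TMM-normalized library size, and 3 counts, taken as the limit of detection, corresponded to between 0.0462 and 0.154 CPM across the libraries; this limit covers counting error only. In quadriceps, 6 muscle fiber genes summed to 138672 to 172382 CPM in no tumor, 110418 to 127041 in KPC and 160142 to 174235 in KPC IL6KO, and 1 of them, Acta1, was called lower in KPC than in no tumor. Of 4 satellite cell genes, which summed to 5.25 to 6.23, 2.67 to 5.11 and 5.23 to 6.69 CPM in the 3 groups, Pax7 and Calcr were called lower in that comparison. Myf5 (log2 fold change -0.42) and Chrdl2 (0.43, the opposite direction) were not called. Among marker lists, the summed level of 5 fibroblast genes was 700.1 to 754.9 CPM in no tumor, 48.0 to 70.7 in KPC and 375.7 to 619.3 in KPC IL6KO quadriceps, and 4 of the 5 were called lower in KPC than in no tumor. Most of the no tumor sum was Col1a1 and Col3a1, with means of 224.4 and 407.9 CPM there and 6.21 and 8.63 in KPC. Pdgfra went from 20.9 to 9.56 CPM, Lum from 19.5 to 1.56 and Ly6a, which was not called, from 46.8 to 34.9. Levels of 4 neutrophil genes went the other way, at 0.359 to 0.779 CPM in no tumor, 4.50 to 21.8 in KPC and 2.14 to 4.13 in KPC IL6KO. Of 6 macrophage genes, Cd68 was called higher and Adgre1 and Mrc1 lower in KPC than in no tumor. The 6 adipocyte genes summed to 303.5 to 1383 CPM in no tumor, 121.2 to 686.6 in KPC and 138.9 to 319.8 in KPC IL6KO. Of these, Lep was called lower in KPC than in no tumor. In fat, 8 genes of the epididymis epithelium, the tissue beside this fat pad, summed to between 747.1 and 84215 CPM and 6 adipocyte genes to between 992.6 and 18079 CPM. In whole tissue, fewer cells of a type and less RNA per cell cannot be told apart.

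The sequence just before the start of the genes that changed most in quadriceps is shown first. The Mstn window held a TATA box and had a lower share of G or C than those of Inhbb, Acvr1b and Smad3. RefSeq windows of the GRCm38.p6 assembly were at hand for 8 of the 10 members. Each line gives the 250 bases before the start, 5′ to 3′, in lower case with motif matches in capitals.
Mstn, chr1:53061390-53061639, + strand: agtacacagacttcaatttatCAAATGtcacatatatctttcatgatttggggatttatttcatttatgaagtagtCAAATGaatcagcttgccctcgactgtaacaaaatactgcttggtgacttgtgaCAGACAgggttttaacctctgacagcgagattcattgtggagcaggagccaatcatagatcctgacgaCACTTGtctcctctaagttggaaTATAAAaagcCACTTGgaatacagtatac
Inhbb, chr1:119422249-119422498, - strand: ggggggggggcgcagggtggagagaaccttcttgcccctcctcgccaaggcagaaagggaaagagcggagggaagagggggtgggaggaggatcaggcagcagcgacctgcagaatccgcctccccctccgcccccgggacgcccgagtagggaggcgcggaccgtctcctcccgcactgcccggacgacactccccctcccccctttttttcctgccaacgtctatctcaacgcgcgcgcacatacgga
Acvr1b, chr15:101173822-101174071, + strand: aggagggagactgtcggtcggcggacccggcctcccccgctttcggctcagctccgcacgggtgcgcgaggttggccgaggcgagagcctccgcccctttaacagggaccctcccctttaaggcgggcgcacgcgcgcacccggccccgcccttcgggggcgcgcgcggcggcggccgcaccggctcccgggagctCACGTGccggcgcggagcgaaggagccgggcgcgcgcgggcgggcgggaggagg
Smad3, chr9:63757995-63758244, - strand: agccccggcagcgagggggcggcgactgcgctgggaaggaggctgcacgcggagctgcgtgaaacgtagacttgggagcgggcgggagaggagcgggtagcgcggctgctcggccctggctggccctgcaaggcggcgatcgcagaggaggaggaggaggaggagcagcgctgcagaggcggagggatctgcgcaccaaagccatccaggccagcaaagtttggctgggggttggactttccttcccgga
Capitals mark a match, on either strand, to CANNTG (the E-box of basic helix-loop-helix factors), CAGACA (a SMAD-binding box), TTCNNNGAA (STAT), TTGCNNAA (C/EBP), TGTTTAC (FOXO) or AGAACA (a glucocorticoid receptor half-site), or to TATAAA on the strand of the gene. The Mstn window held 4 E-boxes, 1 CAGACA box and 1 TATA box, and 38.4% of its bases were G or C, against a median of 52.4% over 32851 windows. The Acvr1b window held 1 E-box, CACGTG, in a sequence of 78.8% G or C. The Inhbb and Smad3 windows, at 68.0% and 69.2% G or C, held no match to any of the 7 motifs. An E-box was in 66.2% of all windows, CAGACA in 17.1%, AGAACA in 16.1%, TTGCNNAA in 9.56%, TATAAA in 7.59%, TTCNNNGAA in 7.02% and TGTTTAC in 3.17%. No E-box and CAGACA match overlapped in these 4 windows. These matches describe letters and not bound sites.

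In quadriceps without a tumor, the receptor, transducer and ligand genes differed widely in level per length (CPM per kb of exon). Smad3 was highest at 21.8 ± 1.86 (SD, n = 3), followed by Acvr1b at 15.9 ± 2.11 and Mstn at 14.7 ± 3.87, the last 2 of which overlapped between mice. Acvr2a was at 3.15 ± 0.496, Acvr2b at 1.68 ± 0.242 and Smad7 at 1.36 ± 0.157, and Acvr2b and Smad7 overlapped. The ligand-binding genes and the activin chain gene were lowest, with Fst at 0.828 ± 0.216, Inhbb at 0.656 ± 0.518 and Fstl3 at 0.510 ± 0.166 CPM per kb, and these overlapped. In KPC quadriceps the order was different, with Mstn at 97.8 ± 60.0 (n = 4) and Acvr1b at 77.4 ± 11.99 CPM per kb, which overlapped. Inhbb at 6.14 ± 2.23, Smad3 at 5.36 ± 2.12, Acvr2a at 4.28 ± 1.20 and Smad7 at 3.76 ± 1.24 all overlapped with each other.

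The first comparison, KPC with no tumor quadriceps, asked how the pathway differed in muscle of mice with the wasting tumor. Transcripts of both ligand genes, of the type I receptor gene and of the inhibitory Smad7 rose, whereas Smad3 and the type II receptor gene Acvr2b fell. Of the 9 genes, 4 were called higher and 2 lower at an FDR of at most 0.05 and a fold change (FC) of at least 1.5 (edgeR quasi-likelihood test, Benjamini-Hochberg adjustment over all genes of the table). Over all genes, 26.7% were called higher and 29% lower, so a change as such was common in this tissue. The groups did not overlap for 6 of the 9 genes, against 65.3% of all genes. The median size of the change, without its sign, was 1.46 on the log2 scale over the 9 genes and 0.746 over all genes. The members were chosen with earlier results of these data known, so these medians are a description and no test. Whether the marker levels given above have a part in these differences was not tested.

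Among the ligands, Mstn was at 34.4, 33.0 and 51.8 CPM in the 3 no tumor mice and at 465.5, 163.7, 105.9 and 322.7 CPM in the 4 KPC mice. Every KPC library lay above every no tumor library, and the KPC mice differed among themselves more than the controls did. The log2 FC was 2.74 ± 0.45 (SE), an FC of 6.67 (edgeR FDR = 0.000252). Inhbb, which encodes the chain of activin B, was at 1.71, 5.33 and 1.33 CPM in no tumor and 32.7, 13.6, 24.04 and 34.2 CPM in KPC. No tumor mouse 2 was high for its group and still below the lowest KPC mouse. Its log2 FC was 3.18 ± 0.52 (FDR = 0.000239), and without that mouse it was 4.07.

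Among the receptors, Acvr1b had the lowest FDR of the 9 genes. It was at 64.0, 65.9 and 81.0 CPM in no tumor and 387.3, 279.1, 384.2 and 316.9 CPM in KPC, with no overlap. The log2 FC was 2.28 ± 0.17, an FC of 4.87 (FDR = 1.56e-06). Acvr2b, a type II receptor gene, went in the opposite direction, from 7.58, 6.53 and 5.69 CPM to 3.10, 5.36, 4.40 and 3.65 CPM. The groups did not overlap, but the nearest values, 5.69 and 5.36 CPM, were close. Its log2 FC was -0.68 ± 0.23 (FDR = 0.0194), and the call was lost without no tumor mouse 1 (-0.54) or without KPC mouse 1 (-0.57). Acvr2a, the other type II receptor gene, was at 18.7, 14.8 and 20.2 CPM in no tumor and at 34.02, 20.1, 24.2 and 19.0 CPM in KPC, which overlapped. Its log2 FC of 0.44 ± 0.21 (95% confidence interval -0.024 to 0.91) did not pass the test (FDR = 0.0848). Exons of Acvr2a overlap those of Orc4 on the opposite strand, and whether the counting used strand is not given in the sources used here.

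Inside the cell, Smad3, which carries the signal of the receptor to the nucleus, was at 114.3, 114.8 and 132.5 CPM in no tumor and at 43.1, 15.6, 34.2 and 25.9 CPM in KPC. All 4 KPC mice were far below the controls. The log2 FC was -2.02 ± 0.26, and the level in no tumor was 4.06-fold that in KPC (FDR = 3.76e-05). Smad7, a feedback inhibitor whose transcription SMAD signaling is known to raise, was at 6.25, 6.78 and 5.38 CPM in no tumor and 13.8, 11.2, 23.7 and 19.4 CPM in KPC. Again no library of one group reached the range of the other. Its log2 FC was 1.46 ± 0.24 (FDR = 0.000202).

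The ligand-binding genes did not pass the test. Fst was at 4.23, 4.51 and 2.66 CPM in no tumor and at 4.99, 1.95, 1.80 and 2.31 CPM in KPC. KPC mouse 1 was the highest of all 7 mice and the other KPC mice were the 3 lowest. The log2 FC was -0.47 ± 0.37 (interval -1.28 to 0.34, FDR = 0.274). Without KPC mouse 1 it was -0.93 and passed (FDR = 0.014). Fstl3 was low in both groups, at 0.831, 1.27 and 1.64 CPM in no tumor and 1.17, 0.702, 0.818 and 1.17 CPM in KPC, with a log2 FC of -0.34 ± 0.29 (interval -0.99 to 0.30, FDR = 0.318). Exons of Fst and Fstl3 overlap on the opposite strand with those of Gm47040 and Prss57.

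**Figure D1:**
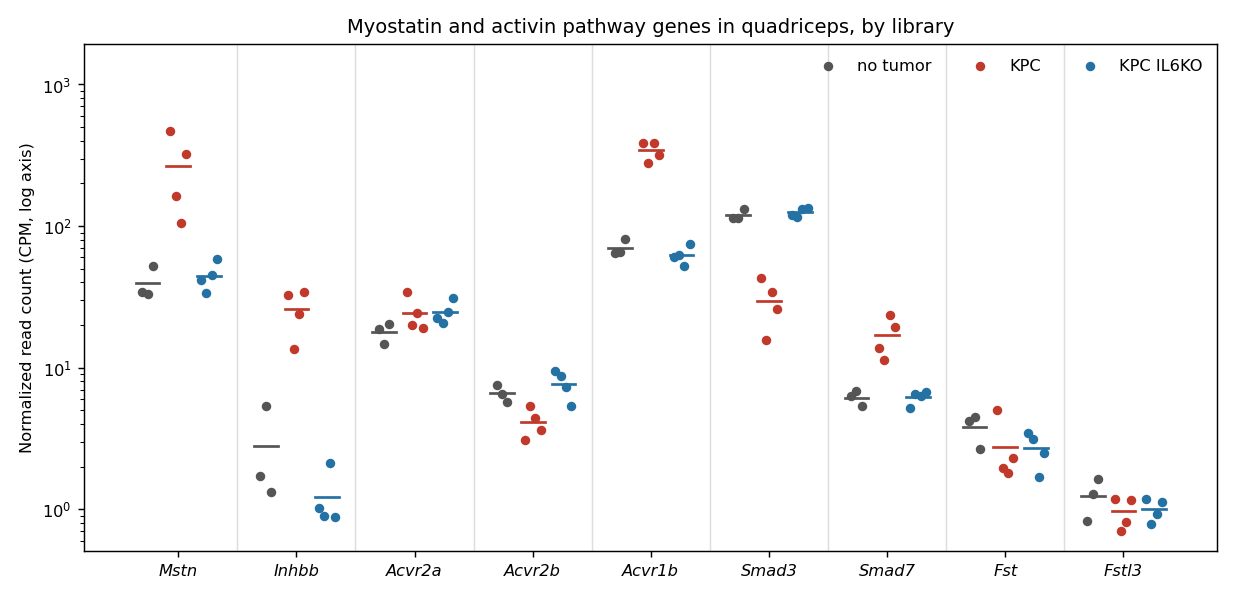
Normalized read count (CPM, log axis) of the 9 genes in each quadriceps library; points are mice, short lines are group means, and colors are the 3 groups. KPC points (red) lie above both other groups for Mstn, Inhbb, Acvr1b and Smad7 and below both for Smad3, while for Fst and Fstl3 the groups overlap and for Acvr2a KPC overlaps with each of the other groups.

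The second comparison, KPC IL6KO with no tumor quadriceps, asked the same of the tumor whose Il6 had been edited. None of the 9 genes was called, and 0% of the 12831 genes were, with the edgeR quasi-likelihood test; 2 of the 9 and 887 of all genes had an unadjusted p under 0.05. The likelihood ratio test of edgeR called 95 genes and DESeq2 called 96, in both cases with 0 of the 9 among them. Mstn was at 41.7, 33.4, 44.8 and 58.7 CPM in the KPC IL6KO mice, within or near the range of the controls, and its log2 FC was 0.17 (interval -0.73 to 1.08). Acvr1b was at 60.8, 62.4, 52.2 and 75.2 CPM, a log2 FC of -0.17 (interval -0.51 to 0.18). Smad3, at 120.1, 116.3, 132.5 and 135.0 CPM, and Smad7, at 5.22, 6.54, 6.31 and 6.67 CPM, also overlapped with no tumor, with log2 FCs of 0.064 (interval -0.49 to 0.62) and 0.0060 (interval -0.49 to 0.51). These intervals leave out changes of the size that the KPC mice had.

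The 2 genes with an unadjusted p under 0.05 were Inhbb and Acvr2a. Inhbb was at 1.02, 0.894, 2.11 and 0.875 CPM in KPC IL6KO, lower than in no tumor on average (log2 FC -1.22 ± 0.50, FDR = 0.595). This rested on no tumor mouse 2, without which the log2 FC was -0.33. Acvr2a was at 22.5, 20.5, 24.9 and 31.2 CPM, all above the no tumor range, the one gene of the 9 for which these groups did not overlap, against 15.5% of all genes. Its log2 FC was 0.47 ± 0.21 (FDR = 0.717), close to the value of 0.44 for KPC, and the 2 comparisons share the no tumor mice. Of the others, Acvr2b was at 9.39, 8.73, 7.25 and 5.33 CPM (log2 FC 0.21, interval -0.29 to 0.71), Fst at 3.43, 3.12, 1.70 and 2.50 CPM (-0.51, interval -1.32 to 0.29) and Fstl3 at 1.18, 0.789, 0.928 and 1.11 CPM (-0.29, interval -0.93 to 0.36).

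The third comparison set the tumor groups against each other. Again 4 of the 9 genes were called higher in KPC, against 26.4% of all genes, and 2 lower, against 27.3% of all genes; for 5 of the 9 the groups did not overlap, against 62% of all genes. Inhbb had a log2 FC of 4.40 ± 0.50 between KPC and KPC IL6KO, an FC of 21.2 (edgeR FDR = 1.58e-05). Mstn differed by 2.57 ± 0.40 (FDR = 0.000162), Acvr1b by 2.45 ± 0.15 (FDR = 6.72e-07) and Smad7 by 1.46 ± 0.21 (FDR = 9.41e-05), all higher in KPC. Smad3 was lower in KPC by a log2 FC of -2.08 ± 0.24 (FDR = 2.06e-05). Acvr2b was lower too, at -0.90 ± 0.21 (FDR = 0.0028), although the lowest KPC IL6KO mouse, at 5.33 CPM, lay just under the highest KPC mouse, at 5.36 CPM. Acvr2a, Fst and Fstl3 had log2 FCs of -0.027 (interval -0.45 to 0.40), 0.045 (interval -0.70 to 0.79) and -0.056 (interval -0.64 to 0.53). For these 3 genes a change of the size seen in Mstn, Inhbb or Acvr1b lay outside the interval.

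**Figure D2:**
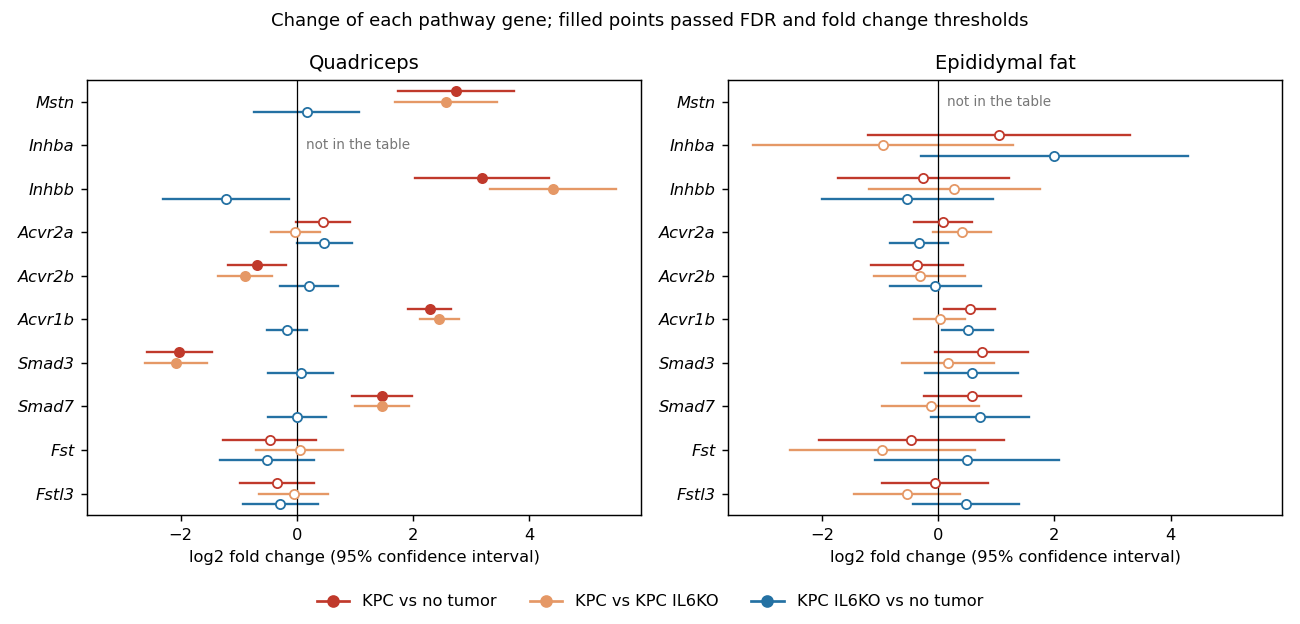
Log2 fold change of each gene with its 95% confidence interval in quadriceps (left) and epididymal fat (right); colors are the 3 comparisons, and filled points passed the FDR and FC thresholds. Filled points stand only in the quadriceps panel, for KPC against either other group, in Mstn, Inhbb, Acvr2b, Acvr1b, Smad3 and Smad7.

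Other genes of the pathway were taken from 6 lists and compared in the same fit. In quadriceps of KPC mice, the other ligand genes were lower or not called, and the other lists held called genes in both directions. The same shares of all genes, 26.7% higher and 29% lower, are the background of the counts below, and whether fibroblast or neutrophil levels have a part in them was not tested.

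Of 5 other ligand genes in the table, 0 were called higher and 3 lower in KPC than in no tumor. Gdf11, the closest relative of myostatin, fell from 6.22 to 6.96 CPM in no tumor to 0.425 to 0.621 CPM in KPC (log2 FC -3.63 ± 0.22), the opposite direction to Mstn. Tgfb1 had a log2 FC of -1.03 ± 0.16 and Tgfb2 of -0.85 ± 0.35, and the groups overlapped for Tgfb2. Tgfb3 had the highest level per length of this list in no tumor, at 11.96 CPM per kb, and was not called. Of 8 receptor and co-receptor genes, 3 were called higher and 3 lower. Tgfbr1, a type I receptor for TGF-β, rose by 1.66 ± 0.23 from 16.1 to 17.3 CPM in no tumor to 34.4 to 73.2 CPM in KPC. Tgfbr2 and Tgfbr3 rose by 0.91 and 1.06 on the log2 scale. Acvr1, a type I receptor used mainly by BMPs and also bound by activins, had a log2 FC of -1.22 ± 0.13. Acvrl1 and Eng, a receptor and co-receptor of endothelial cells, were lower by log2 FCs of -1.19 and -0.71, and Eng had the highest level per length of the list in no tumor, at 11.97 CPM per kb. Of 4 endothelial marker genes, Kdr was called lower (log2 FC -0.79). Pecam1 (0.36), Cdh5 (-0.24) and Emcn (-0.33) were not called. Whether endothelial levels have a part in the falls of Acvrl1 and Eng was not tested.

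Of 9 genes that process or bind the ligands outside the cell, 1 was called higher and 5 lower. Furin, the protease that cleaves pro-myostatin and other TGF-β family precursors, rose by 1.43 ± 0.15 from 61.3 to 66.1 CPM in no tumor to 126.8 to 198.4 CPM in KPC. Bmp1, a protease of the tolloid family that frees latent myostatin and also processes collagen, fell by 2.10 ± 0.14 on the log2 scale. Fstl1, a secreted relative of follistatin made by fibroblasts among other cells, had a log2 FC of -3.10 ± 0.20. Ltbp4 was lower by a log2 FC of -2.09, Dcn of -0.70 and Bambi, a decoy receptor, of -0.68. Dcn had the highest level per length in no tumor, at 47.6 CPM per kb. Fstl1 and Dcn are matrix or fibroblast genes. In the same mice 4 of 5 fibroblast markers were called lower, by log2 FCs from -1.13 (Pdgfra) to -5.56 (Col3a1). Whether fibroblast levels have a part in the falls of Fstl1 and Dcn was not tested.

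Of 11 SMAD transducers and regulators, 3 were called higher and 1 lower. Tgif1, a repressor that binds SMADs, went from 3.43 to 4.74 CPM in no tumor to 41.6 to 162.2 CPM in KPC, an FC of 22.6 (log2 FC 4.50 ± 0.49). Nedd4l, a ubiquitin ligase for SMAD2 and SMAD3, rose by 1.39 ± 0.23. Smad4, the shared partner of the SMADs, rose by 0.94 ± 0.14, so that it moved opposite to Smad3. Smad6 fell by 0.95 ± 0.31 on the log2 scale. Ppm1a, a phosphatase for SMADs, had the highest level per length of the list, at 15.8 CPM per kb in no tumor, and was not called.

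Of 8 genes known as SMAD2/3 targets, 2 were called higher and 3 lower. Cdkn1a, the cell cycle inhibitor p21, ranged from 17.4 to 20.8 CPM in the controls and from 150.9 to 675.6 CPM in KPC (log2 FC 4.70 ± 0.49). Col1a1, a fibrillar collagen that stands in the fibroblast list too and had the highest level per length in no tumor at 34.2 CPM per kb, had a log2 FC of -5.17 ± 0.40. Cdkn2b and Ltbp2 were lower by log2 FCs of -2.81 and -1.55, and the groups overlapped for Ltbp2. Genes of this list have many regulators besides SMADs, and they did not move one way.

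The related BMP branch signals through other receptors and SMAD1, SMAD5 and SMAD9, and in muscle it is known to favor growth. Of 15 of its genes in the table, 7 were called higher and 3 lower. Gdf5, a BMP ligand, had levels of 0.139 to 0.392 CPM in the controls and 0.893 to 6.87 CPM in KPC (log2 FC 3.38 ± 0.81), so it stayed at a low level. Fbxo30, a ubiquitin ligase that BMP signaling restrains in muscle, rose by 2.17 ± 0.18, from 6.66 to 10.1 CPM to 28.4 to 44.9 CPM. Smad5 rose by 1.00, Bmp4 by 0.94, Smad1 by 0.86, Bmpr1b by 0.72 and Chrd by 0.61 on the log2 scale. Bmp7 fell by 2.38 ± 0.37 on the log2 scale, from 0.658 to 0.745 CPM to 0.0616 to 0.196 CPM, the latter near the limit of detection. Bmp2 and Id1, a target of this branch, had log2 FCs of -1.18 and -0.73. Id1 had the highest level per length of the list in no tumor, at 14.7 CPM per kb.

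In KPC IL6KO against no tumor quadriceps, 0 genes of any of the 6 lists were called (edgeR quasi-likelihood test), as were 0% of all 12831 genes. Between KPC and KPC IL6KO the counts were close to those against no tumor. Of the ligand genes, Inha was called higher and Gdf11 and Tgfb1 lower in KPC. Of the extracellular genes, Furin was higher and Fstl1, Bmp1, Ltbp4 and Tll1 lower. Of the SMAD regulators, Tgif1, Nedd4l, Skil and Smad4 were higher and Smad6 lower, and of the target genes, 2 were higher, Cdkn1a among them, and Col1a1 and Cdkn2b were lower. In the other 2 lists, 3 receptor genes were higher and 3 lower, and 6 BMP branch genes were higher and 3 lower. Of all genes, 26.4% were called higher and 27.3% lower in this comparison.

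**Figure D3:**
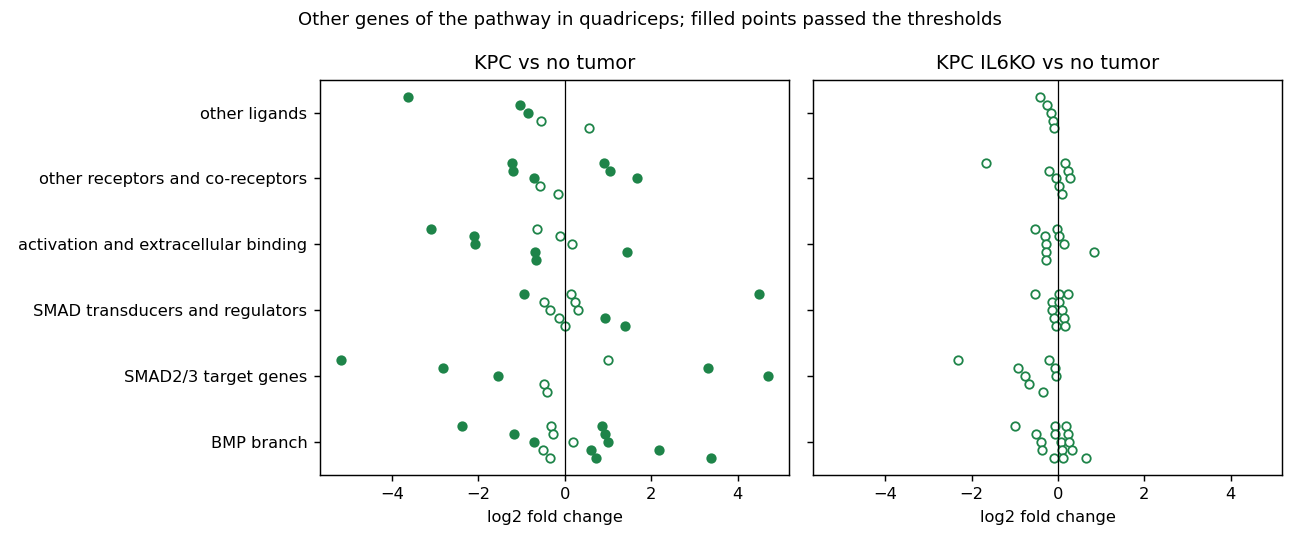
Log2 fold change of the other pathway genes in quadriceps, by list, for KPC (left) and KPC IL6KO (right) against no tumor; each point is a gene and filled points passed the thresholds. KPC points spread from -5.17 (Col1a1) to 4.70 (Cdkn1a) in both directions within most lists, and no point is filled for KPC IL6KO.

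The genes whose pattern over the 11 quadriceps libraries was most like that of Mstn were found by the root mean square difference of log2 CPM, each gene centered on its own mean, among 10983 genes. Bach1, a transcriptional repressor, was nearest at 0.262, with 24.96 ± 3.54 CPM in no tumor, 171.1 ± 86.0 in KPC and 30.2 ± 5.58 in KPC IL6KO. The next were 6430548M08Rik at 0.343 and Snhg5 at 0.345. The points share the 3 groups, so genes with a similar change in KPC come out near each other. These values are a description.

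In epididymal fat the same 3 comparisons gave no call for any of the 9 genes with a row there. The edgeR quasi-likelihood test also called 0% of the 16962 genes in each comparison. At an unadjusted p under 0.05, 1 of the 9 genes stood out for KPC against no tumor, 1 for KPC IL6KO against no tumor and 0 for KPC against KPC IL6KO, while over all genes 2061, 1584 and 1062 did. The likelihood ratio test and DESeq2 called 413 and 585 genes for KPC and 209 and 286 for KPC IL6KO against no tumor, with 0 of the 9 among them. The coefficient of variation between mice of a group was 63.5% in fat and 22.7% in quadriceps, so changes that quadriceps would show could be missed in fat.

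Inhbb was the ligand gene at a high level in fat, with 137.0, 36.2, 74.7 and 16.3 CPM in the no tumor mice, 53.03, 79.8, 49.4 and 39.3 CPM in KPC and 18.1, 109.6, 30.5 and 24.8 CPM in KPC IL6KO. Each group overlapped with the others. The log2 FC was -0.25 ± 0.67 in KPC and -0.53 ± 0.67 in KPC IL6KO against no tumor, with intervals of -1.72 to 1.21 and -2.001 to 0.94. Inhba was low and scattered, at 1.80, 0.208, 1.28 and 0.269 CPM in no tumor, 0.701, 1.60, 2.56 and 2.47 CPM in KPC and 9.498, 1.78, 0.149 and 2.72 CPM in KPC IL6KO. Its log2 FC of 2.00 ± 1.05 in KPC IL6KO (edgeR FDR = 0.604) rested on mouse 5, without which it was 0.81. In KPC the log2 FC of Inhba was 1.05 ± 1.02 (interval -1.20 to 3.30).

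Acvr1b was the one gene of the 9 with separate groups in fat, a pattern that 10.9% of all genes had for KPC against no tumor. It was at 43.7, 33.0, 50.4 and 47.8 CPM in no tumor, 79.8, 56.0, 52.8 and 66.3 CPM in KPC and 51.9, 50.4, 76.03 and 71.1 CPM in KPC IL6KO. The KPC mice lay above all controls, and so did the KPC IL6KO mice except mouse 6, which was level with the highest control. The log2 FC was 0.54 ± 0.20 in KPC (FDR = 0.332) and 0.51 ± 0.20 in KPC IL6KO (FDR = 0.486), neither of which passed after adjustment. No gene of the 9 had separate groups for KPC IL6KO against no tumor or for KPC against KPC IL6KO, against 2.01% and 4.33% of all genes.

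Smad3 was at 73.2, 37.8, 55.3 and 29.9 CPM in no tumor fat and 75.9, 84.9, 61.99 and 106.9 CPM in KPC fat, a log2 FC of 0.75 ± 0.36 (FDR = 0.447). In KPC IL6KO fat it was at 119.8, 71.3, 36.3 and 65.5 CPM (log2 FC 0.58 ± 0.36). Smad7 had log2 FCs of 0.59 ± 0.38 and 0.72 ± 0.38. All KPC mice and all but 1 KPC IL6KO mouse, mouse 7, were above the control mean for both SMAD genes, but the groups overlapped. Acvr2a ranged from 20.4 to 45.7 CPM and Acvr2b from 1.11 to 3.14 CPM over the 12 fat libraries. Fstl3 ranged from 6.05 to 23.2 CPM, and its level per length in no tumor fat was 4.01 ± 1.37 CPM per kb. Per length, Inhbb at 15.5 ± 12.5, Acvr1b at 9.90 ± 1.73 and Smad3 at 8.85 ± 3.47 CPM per kb were highest in no tumor fat and overlapped.

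**Figure D4:**
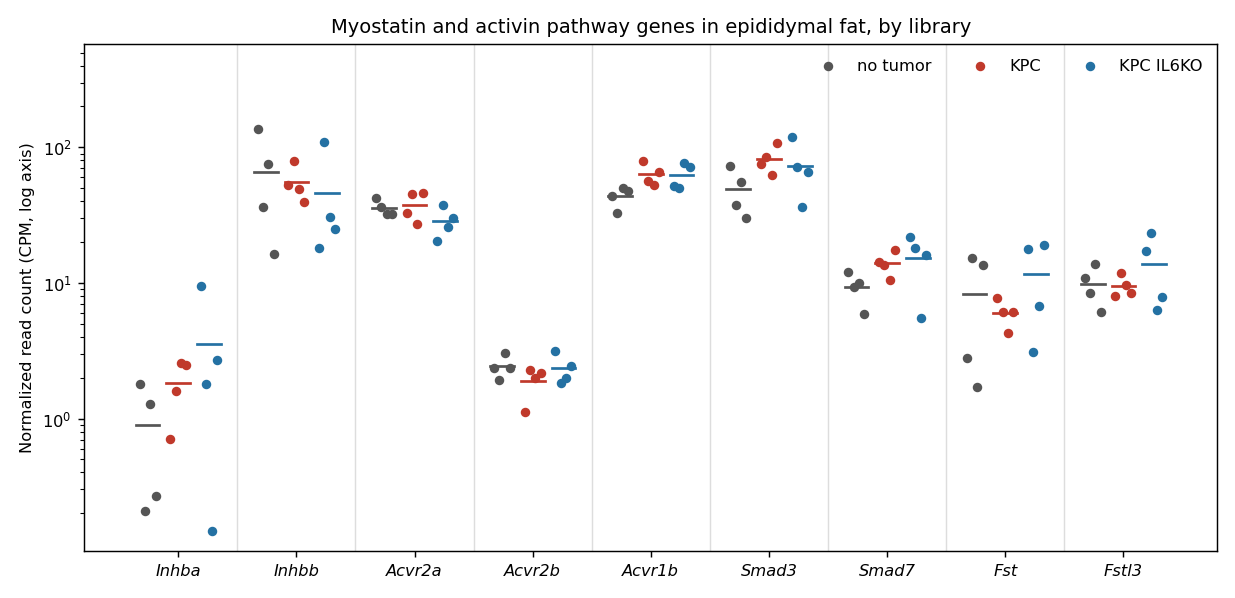
Normalized read count (CPM, log axis) of the 9 genes in each epididymal fat library; points are mice, short lines are group means, and colors are the 3 groups. The groups overlap for every gene in at least one comparison, and Inhba, Inhbb and Fst are the most scattered.

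In fat, Inhbb was higher and Fst mostly lower in the libraries with high Gpx5. Gpx5, a gene of the epididymis epithelium, was at 21347 to 54957 CPM in 7 libraries, namely no tumor 5 and 7, KPC IL6KO 6 and all 4 KPC. The other 5 libraries had Gpx5 levels of 4.69 to 85.8 CPM. The 8 epididymis genes summed to 39311 to 84215 CPM in the 7 and still to 747.1 to 19128 CPM in the 5, so Gpx5 does not measure all epididymis RNA. Inhbb was at 39.3 to 137.0 CPM in the 7 libraries and at 16.3 to 36.2 CPM in the 5. Fst was at 1.72 to 7.68 CPM in the 7 and at 6.72 to 19.2 CPM in the 5. Among the 7, Inhbb was at 74.7 and 137.0 CPM in no tumor, 39.3 to 79.8 in KPC and 109.6 in KPC IL6KO, and among the 5 it was at 16.3 and 36.2 in no tumor and 18.1 to 30.5 in KPC IL6KO. No KPC library was among the 5. The 6 adipocyte genes summed to 992.6 to 8479 CPM in the 7 and to 2654 to 18079 CPM in the 5. With the summed epididymis markers as a covariate, the log2 FC of Fst in KPC against no tumor was 0.11 in place of -0.46, and that of Inhbb in KPC IL6KO was 0.14 in place of -0.53. The log2 FC of Inhbb in KPC against no tumor kept its sign. What sets these levels was not tested.

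**Figure D5:**
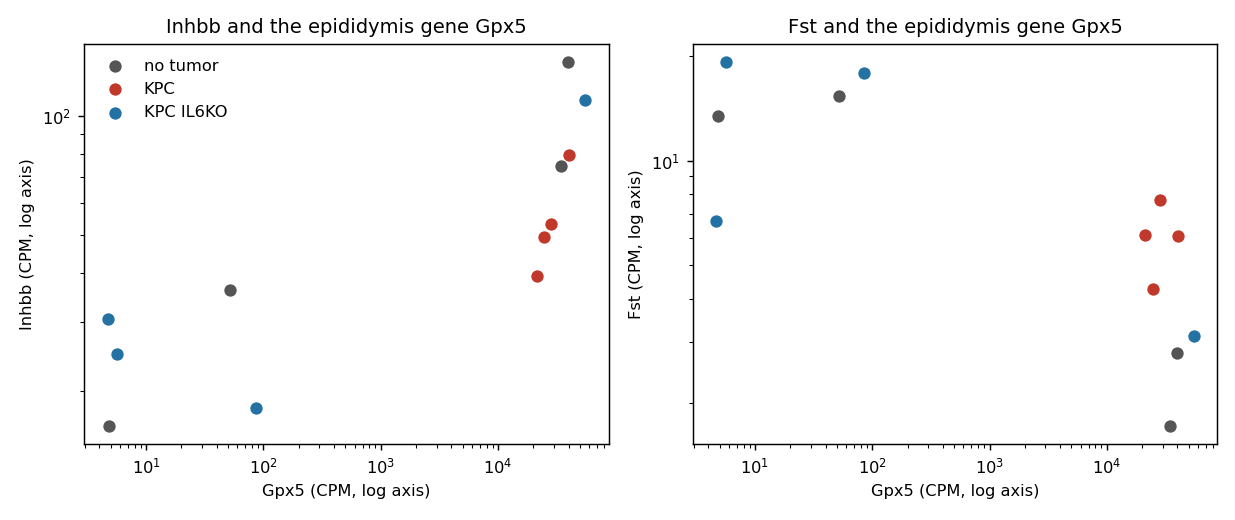
Level of Inhbb (left) and Fst (right) against Gpx5 in the 12 epididymal fat libraries (CPM, log axes); each point is a mouse and colors are the 3 groups. The 7 libraries at the right, with Gpx5 at 21347 to 54957 CPM, hold all 4 KPC mice, and they have Inhbb at 39.3 CPM or more and Fst at 7.68 CPM or less.

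The genes most like Inhbb over the 12 fat libraries, by the same measure among 14541 genes, were Rgs3 at 0.231, Plcg1 at 0.238 and Mospd1 at 0.307. Plcg1 was at 205.3 ± 150.3 CPM in no tumor, 150.1 ± 24.7 in KPC and 146.8 ± 123.6 in KPC IL6KO. These genes scattered within groups as Inhbb did.

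Among the other genes of the pathway, 0 of any list were called in fat in any of the 3 comparisons (edgeR quasi-likelihood test), as were 0% of all 16962 genes, so the 0 is no result about these lists.

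The difference between tissues was tested directly for the 8 genes with a row in both tables, with all 23 libraries in 1 fit over 12599 genes. The tissues were deposited as separate tables and the methods name different library kits for them, so each was compared with its own no tumor group. The fit treated all libraries as independent and held no epididymis marker covariate. For KPC, 2 genes were called with a higher log2 FC in quadriceps than in fat, against 18.1% of all genes, and 1 was called with a lower one, against 18.8% of all genes. The difference was 3.31 ± 0.91 for Inhbb (edgeR FDR = 0.00746), 1.64 ± 0.27 for Acvr1b (FDR = 0.000137) and -2.89 ± 0.46 for Smad3 (FDR = 8.3e-05). Smad3 thus had values below the controls in muscle. In fat its mean was above that of the controls, but the groups overlapped. There it was not called (log2 FC 0.75, interval -0.051 to 1.55), so a rise in fat was not shown. Smad7 had a difference of 0.76 ± 0.44 (interval -0.16 to 1.68, FDR = 0.182), so its rise in quadriceps was not shown to be particular to that tissue. For Acvr2b the difference was -0.42 ± 0.38, and for Fst, Fstl3 and Acvr2a it was -0.091, -0.42 and 0.25. For KPC IL6KO the test called 0 of the 8 genes and 0% of all genes, with 2 of the 8, Acvr2a and Acvr1b, and 1003 of all genes at an unadjusted p under 0.05. The likelihood ratio test and DESeq2 called 39 and 46 genes there, again with 0 of the 8.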

How the data were processed

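RNA from quadriceps (11 mice) and epididymal fat (12 mice) was sequenced, and groups were taken from the sample titles. The authors aligned reads with STAR to mm10, counted uniquely mapped reads per gene (featureCounts 1.5.1 and edgeR 3.12.1 are in the submitters' processing notes) and deposited raw counts, 1 table per tissue, which lack rows for genes with few counts. The sources name different library kits (TruSeq RNA Access in the labels, TruSeq Nano DNA and TruSeq Stranded mRNA in the methods). The authors also dropped 1 no tumor quadriceps sample, which was not analysed here.

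After TMM normalization, each tissue had 1 model for its 3 groups in edgeR 4.0.16 (R 4.3.3, quasi-likelihood test, legacy form). filterByExpr removed no gene. A call needed an FDR (Benjamini-Hochberg, over all genes tested) no higher than 0.05 together with an FC of 1.5 or more, the thresholds of the study. SE values come from the F statistic, and intervals are 95%. Exon lengths and positions come from the GENCODE annotation of GRCm38. Likeness of patterns used a pseudocount of 0.5 CPM. Figures were drawn with matplotlib 3.10.9. No pair of libraries of a group was a duplicate (chi-square over degrees of freedom of 28.9 or more). The code was tested on simulated data. Alternatives were the likelihood ratio test, the newer quasi-likelihood fit, DESeq2 1.42.0, RLE normalization, other count filters, only the groups compared, a replicate block, an epididymis marker covariate in fat and leaving out each library.

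The members and lists were chosen with earlier results of these data known. The text names all 10 members, the called gene with the largest rise and fall of each list in KPC quadriceps, all called genes of a list with 5 or fewer calls, the gene of each list with the highest level per length, and the 3 genes most like Mstn and Inhbb. Others are given where a count of 5 or fewer called for names. A called gene of the SMAD2/3 target list is counted but not reported here.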

Additional observations from a re-analysis of the deposited data

Results flagged for a closer look

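In 3 cases a single library stood apart from the rest of its group by Dixon's criterion, which chance meets in about 1 in 20 groups. Every member was examined in each group of 4 libraries, so some such cases are due by chance. The no tumor quadriceps group, with 3 libraries, was not examined. Inhbb in quadriceps of KPC IL6KO mouse 3 was at 2.11 CPM, above the 0.875 to 1.02 CPM of the other 3 mice. Inhbb in epididymal fat of KPC IL6KO mouse 6 was at 109.6 CPM, and Gpx5 was at 54957 CPM in that library and at most 85.8 CPM in the other 3 of its group. Fst in quadriceps of KPC mouse 1 was at 4.99 CPM, above the 1.80 to 2.31 CPM of the other 3.

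The change in KPC against no tumor differed between tissues for 3 genes by the test of the difference itself (edgeR quasi-likelihood test of the interaction). The log2 fold change in quadriceps minus that in fat was 3.31 for Inhbb, 1.64 for Acvr1b and -2.89 for Smad3. All 3 passed under each of the 30 alternatives tried for each gene. The epididymis marker covariate was fitted in fat alone and was not among the 30. The difference for Inhbb, whose level in fat went with Gpx5, was therefore not tried with it. The lowest value for Inhbb, 2.72, came without epididymal fat no tumor mouse 5.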

How the results depend on the processing

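Of 180 recomputed counts of members called, 180 stayed within 1.5 times the main count. Where the main count of members was 0, it stayed at 0. Counts over all genes moved more. For KPC against no tumor in fat they were 0 in the main fit, 413 with the likelihood ratio test and 585 with DESeq2. Of 1557 recomputed log2 fold changes, 1506 kept their direction and their side of the thresholds, 3 no longer passed, 1 newly passed and 47 changed sign, all 47 of them for values that did not pass. The replicate numbers were not taken to pair the mice, because the correlation of deviations did not exceed 0.1 in every same-number pair: it did in 2 of 10 pairs in quadriceps (8 of 30 for different numbers) and in 7 of 12 in fat (14 of 36). The median correlation in fat was 0.16 for same-number pairs and -0.14 for different numbers. In quadriceps these medians were 0.045 and -0.033. A pairing in fat is not excluded by these values. With the replicate block, 5 rather than 6 genes were called in KPC quadriceps: Acvr2b was at -0.57 and no longer passed. In the same block fit Mstn (-0.0094) and Smad7 (-0.073) in KPC IL6KO quadriceps and Fst (-0.0092) between tumor groups changed sign. With the epididymis covariate in fat, Fst was at 0.11, -0.25 and 0.36 in KPC, KPC IL6KO and between tumor groups, Inhbb at 0.14 in KPC IL6KO and -0.38 between tumor groups, and Acvr1b at -0.031 between tumor groups. The cause was not tested.

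With each library left out in turn, called genes kept their direction, and these log2 fold changes, none of which passed in the main fit, changed sign. Between KPC and KPC IL6KO quadriceps, Acvr2a ranged from -0.23 to 0.10, Fst from -0.41 to 0.20 and Fstl3 from -0.16 to 0.069, and Smad7 in KPC IL6KO against no tumor from -0.075 to 0.084. In fat, KPC against no tumor, Inhbb ranged from -0.58 to 0.38, Acvr2a from -0.023 to 0.21, Fst from -0.80 to 0.0092 and Fstl3 from -0.22 to 0.17. In KPC IL6KO fat, Inhbb ranged from -1.43 to 0.11 and Acvr2b from -0.22 to 0.080. Between the tumor groups in fat, Inhba ranged from -1.34 to 0.24, Acvr1b from -0.096 to 0.17, Smad3 from -0.042 to 0.51 and Smad7 from -0.39 to 0.087. The difference between tissues ranged from -0.55 to 0.25 for Fst in KPC and from -1.25 to 0.22 for Inhbb in KPC IL6KO. Acvr2b in KPC quadriceps no longer passed without no tumor mouse 1 or KPC mouse 1, and Fst newly passed without KPC mouse 1.

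Inhba in fat reached as few as 5 counts in a library, and Bmp7 in KPC quadriceps as few as 4. Of 9 genes tested in fat, none passed under any alternative.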
